A study of Homo sapiens with 6 samples.

Results

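PARK7, SRPRB, FABP5 and BCL3 are 4 genes whose mRNAs met the criteria for an IGF2BP3 target after digestion with RNase I but not after the higher RNase T1 concentration. They were selected on these very values, the reads and T-to-C conversions of their clusters with RNase I at 0.05/0.05 U/µL (in lysate/on beads) and RNase T1 at 1/1, so that the difference between those libraries is a description and not a result. On the exons of the 4 genes lay 44 of the 244645 clusters of the series, and 11988 genes carried a cluster on an exon in any library. All libraries came from HCT116, a human colorectal carcinoma line, here of the genotype Tet-OsTIR1-PURO (a subline that conditionally expresses the auxin receptor OsTIR1), grown with 100 µM 4-thiouridine (4sU) for 15 h and crosslinked with UV light. The 6 libraries, 1 per condition, are named by the RNase and its concentration in U/µL in the lysate and then on the beads. IGF2BP3 was immunoprecipitated after RNase I at 0.05/0.05, 0.1/0.025 or 0.05/0.025 and after RNase T1 at 1/1 or 0.25/0.25, and the control, an IgG precipitation, followed RNase I at 0.1/0.025. For RNase I 0.05/0.05 and for RNase T1 1/1 the gel was electroeluted, and for the other IGF2BP3 libraries it was crushed, so that concentration and gel extraction cannot be told apart between these libraries and the others of the same enzyme. RNase I 0.1/0.025 and 0.05/0.025 shared the extraction and differed in the in-lysate concentration.

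IGF2BP3 is an oncofetal RNA-binding protein that binds mostly in 3′UTRs and regulates the stability, localization and translation of its mRNAs. In PAR-CLIP, reverse transcription turns a crosslinked 4sU into C instead of T, and overlapping reads with such conversions are joined into a cluster. RNase I cuts after any nucleotide, whereas RNase T1 cuts single-stranded RNA after G, so that a stretch free of G stays whole and a G-rich stretch falls into short pieces. PARK7 encodes DJ-1, a protein that protects cells against oxidative stress and is mutated in a recessive form of Parkinson's disease. SRPRB encodes the membrane-bound subunit of the signal recognition particle receptor, FABP5 a cytosolic fatty acid binding protein, and BCL3 an atypical IκB protein that acts as a nuclear coregulator of NF-κB and was found as an oncogene in B-cell leukemia.

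Target genes were those with 1 or more exonic clusters above 10 CPM (reads of the cluster, normalized to the summed cluster reads of the library) and above 0.5 conversion events per read. The clusters held between 182448 reads with RNase T1 0.25/0.25 and 2362467 with RNase I 0.05/0.05, and 10 CPM equaled between 1.82 and 23.6 reads in these libraries. Of the 4981 targets with RNase I 0.05/0.05, 1594 (32%) were not targets with RNase T1 1/1, as is the case for the 4 genes by their choice. In the other IGF2BP3 libraries, all 4 genes were targets in the other RNase I libraries (0.1/0.025 and 0.05/0.025), against 66.8% and 71% of the 1594. The choice names RNase I without a concentration, and RNase I 0.05/0.05 was taken here, so that these counts are no support if the other RNase I libraries were used in it. With RNase T1 0.25/0.25, PARK7 and SRPRB were targets and FABP5 and BCL3 were not, that is 2 of 4 genes against 22% of the 1594. BCL3 had no cluster with RNase T1 1/1, and neither had 18.9% of the 1594. With RNase T1 0.25/0.25 the read criterion removed no cluster. The top clusters of PARK7 and SRPRB held 13 and 8 reads there. With at least 20 reads asked in place of that criterion, neither gene was a target with RNase T1 0.25/0.25. The IgG library held 25 clusters with 324 reads and none on the 4 genes. Scaled to these cluster reads, PARK7 would have given 0.0623 reads at its RNase I 0.05/0.05 CPM. Reads in called clusters are not a sequencing depth. A low background and a low depth of the IgG library can therefore not be told apart here for the 4 genes. Each condition had 1 library, no test between conditions was possible, and the 95% intervals (exact Poisson for reads, Wilson for proportions) cover counting error only.

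**Figure D1:**
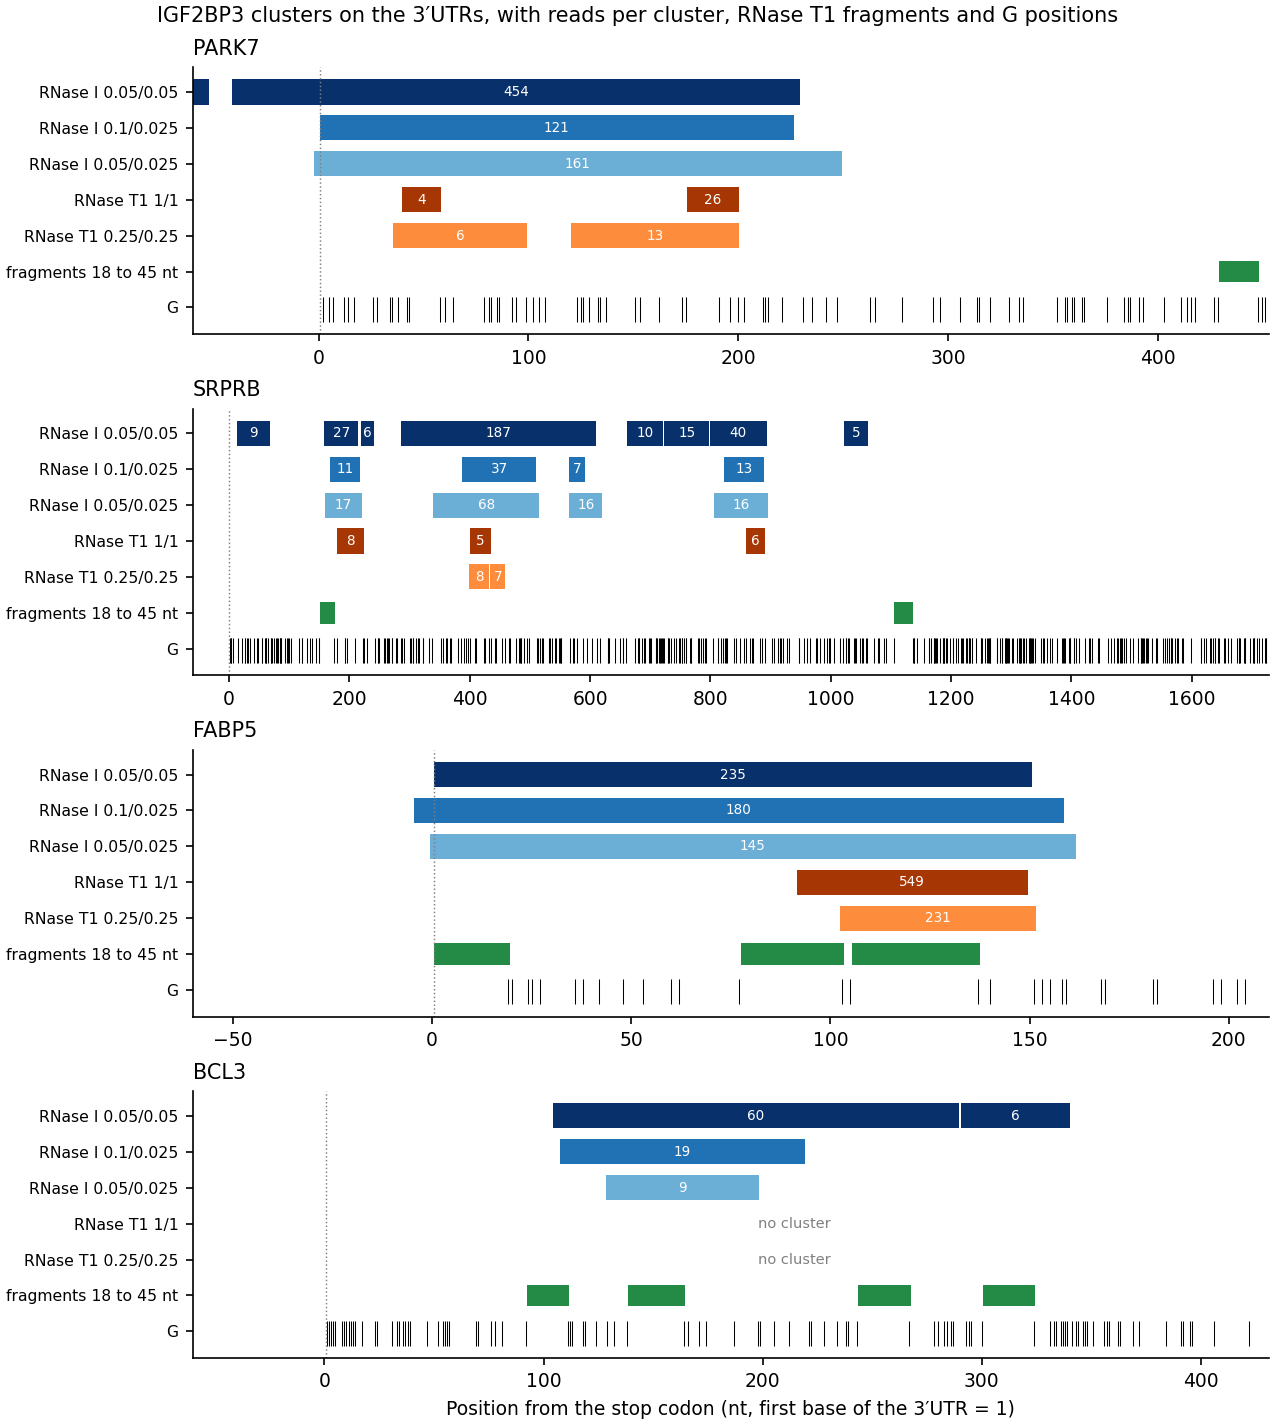
Clusters on the 3′UTRs of the 4 genes in the 5 IGF2BP3 libraries (rows, RNase concentrations in U/µL in the lysate and on the beads), by position from the stop codon in nt, with the number of reads on each bar. Green bars are the pieces of 18 to 45 nt that RNase T1 would leave if it cut after every G, and black ticks mark each G. In PARK7, SRPRB and FABP5 the RNase T1 bars with the most reads are shorter than the RNase I bars with the most reads. Some other RNase I bars, as in SRPRB, are as short as RNase T1 bars. BCL3 has no RNase T1 bar.

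In PARK7 (ENSG00000116288) the site lay at the start of the 3′UTR, which is a single stretch of 451 nt at chr1:7985055-7985505 on the plus strand (GRCh38). The top cluster, the one with the most reads, ran from position -41 to 229 relative to the stop codon with RNase I 0.05/0.05, from 1 to 226 with RNase I 0.1/0.025 and from -2 to 249 with RNase I 0.05/0.025, where 1 is the first base of the 3′UTR. These clusters coincided almost fully, and each held nearly all the reads of the gene. With RNase T1 1/1 the 3′UTR held a cluster of 25 nt and a cluster of 19 nt, both inside the RNase I cluster. With RNase T1 0.25/0.25 the clusters were longer, at 64 and 80 nt, and the 80-nt cluster ended at the same base as the 25-nt cluster of the 1/1 library, position 200. The sequences below show this end, with each G, after which RNase T1 cuts, in capitals. The top 25-nt cluster begins at position 176, where the longest piece that a complete RNase T1 digest would leave of the RNase I site also begins. Each such piece ends with its only G.
PARK7, longest digest piece of the RNase I 0.05/0.05 cluster, chr1:7985230-7985245: tctatacatttctaaG
PARK7, top RNase T1 1/1 cluster, chr1:7985230-7985254: tctatacatttctaaGccttGtttG
PARK7, last bases of the top RNase T1 0.25/0.25 cluster, chr1:7985225-7985254: ttGtGtctatacatttctaaGccttGtttG
PARK7, second RNase T1 1/1 cluster, chr1:7985094-7985112: taGGaatccattctcactG

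The longest digest piece is 16 nt, its final G included, which is below the 18 nt that the authors kept as the shortest read, and both RNase T1 1/1 clusters of PARK7 hold 3 G each, the last of them at the very end. The reads over the RNase I 0.05/0.05 site of PARK7 were 454 (192 CPM, interval 175 to 211) in that library, 121 (151 CPM, 125 to 180) with RNase I 0.1/0.025 and 161 (240 CPM, 204 to 280) with RNase I 0.05/0.025. With RNase T1 they were 30 (25.9 CPM, 17.5 to 37.0) at 1/1 and 19 (104 CPM, 62.7 to 163) at 0.25/0.25. The RNase T1 0.25/0.25 interval overlapped that of RNase I 0.1/0.025 and lay below that of RNase I 0.05/0.025. In the top cluster there were 0.683, 0.653 and 0.615 conversion events per read with RNase I 0.05/0.05, 0.1/0.025 and 0.05/0.025, 0.346 after RNase T1 1/1 and 0.615 with RNase T1 0.25/0.25. On CPM over summed cluster reads, PARK7 thus passed the read criterion with RNase T1 1/1, at 22.5 CPM, and failed on conversions. The paper instead gives PARK7 as an example of a gene missed with RNase T1 for low coverage, under its CPM threshold. The denominator of the paper's CPM is not given in its methods, so that the CPM values may not be alike.

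In SRPRB (ENSG00000144867) the reads were spread over many sites. Its 3′UTR, 1726 nt at chr3:133819767-133821492 on the plus strand, held 8 of the gene's 10 clusters in the RNase I 0.05/0.05 library, and the clusters covered 726 nt or 42.1% of it. The top cluster, from 287 to 610 nt after the stop codon, held 187 of 313 reads. The other RNase I libraries found its core, from 388 to 510 with RNase I 0.1/0.025 and from 340 to 515 with RNase I 0.05/0.025, and flanking sites were found by all 3, from 169 to 217 and from 823 to 888 with RNase I 0.1/0.025. With RNase T1 1/1 the gene had 4 clusters of 5 to 8 reads. The one with the most reads, from 180 to 224, shared no base with the top RNase I cluster, while another, from 401 to 435, lay in its core. With RNase T1 0.25/0.25 the clusters were 2 neighbors within that core, from 400 to 432 and from 435 to 458.
SRPRB, longest digest piece of the RNase I 0.05/0.05 cluster, chr3:133820105-133820119: ttttcttatcttctG
SRPRB, last bases of the RNase T1 1/1 cluster in the core, chr3:133820172-133820201: caGttGcactatttccaGttGcctctGaaG
SRPRB, last bases of the top RNase T1 0.25/0.25 cluster, chr3:133820169-133820198: ttccaGttGcactatttccaGttGcctctG
SRPRB, second RNase T1 0.25/0.25 cluster, chr3:133820201-133820224: GttcacaGGcaatacattGtctaG
SRPRB, last bases of the top RNase T1 1/1 cluster, chr3:133819961-133819990: tGcctttcaaacaaGtaccttttatctGat

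The longest digest piece of the SRPRB site, 15 nt, is again under 18 nt. Such short pieces were common among the top RNase I 0.05/0.05 clusters of the 4981 targets. There the longest piece had a median of 21 nt and a lower quartile of 17 nt. PARK7 stood at the percentile 24.1 and SRPRB at 18.5. Over the RNase I 0.05/0.05 site the reads of SRPRB were 187 (79.2 CPM, 68.2 to 91.3), 44 (54.8 CPM, 39.8 to 73.5) with RNase I 0.1/0.025 and 84 (125 CPM, 99.9 to 155) with RNase I 0.05/0.025. They were 5 (4.32 CPM, 1.40 to 10.1) with RNase T1 1/1 and 15 (82.2 CPM, 46.0 to 136) with RNase T1 0.25/0.25. The value with RNase T1 0.25/0.25 lay within the range of the RNase I libraries. Conversions of SRPRB were 0.711, 0.757 and 0.721 events per read in the top RNase I clusters, in the order above, 0.75 with RNase T1 1/1 and 0.625 with RNase T1 0.25/0.25. SRPRB thus passed the conversion criterion in every IGF2BP3 library and missed only the read criterion with RNase T1 1/1, with 6.91 CPM. The 4 clusters of the gene held 20.7 CPM in all in that library, so that SRPRB was a target there when the clusters of a gene were summed. Outside the canonical transcript, an exon of another SRPRB transcript carried a cluster of 7 reads with RNase I 0.05/0.05 and a G-free cluster of 5 reads with RNase T1 1/1.

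FABP5 (ENSG00000164687) was the only one of the 4 genes with a higher CPM in the RNase T1 libraries than in the RNase I libraries. Its 3′UTR is short, 208 nt at chr8:81284568-81284775 on the plus strand, and every IGF2BP3 library had a single cluster on the gene. With RNase I the cluster covered 150, 158 and 161 nt of the 3′UTR at 0.05/0.05, 0.1/0.025 and 0.05/0.025, starting within a few bases of the stop codon. With RNase T1 it was confined to positions 92 to 149 at 1/1 and 103 to 151 at 0.25/0.25, and 47 nt were shared between these clusters. The reads were 235 (99.5 CPM, 87.2 to 113), 180 (224 CPM, 192 to 259) and 145 (216 CPM, 182 to 254) with RNase I, 549 (474 CPM, 436 to 516) after RNase T1 1/1 and 231 (1266 CPM, 1108 to 1440) with RNase T1 0.25/0.25. The RNase T1 0.25/0.25 interval lay above those of RNase I 0.1/0.025 and 0.05/0.025. Conversion events per read were 0.502, 0.644 and 0.586 with RNase I against 0.372 and 0.398 with RNase T1. FABP5 therefore failed only on conversions, and its RNase I 0.05/0.05 cluster, with 118 events in 235 reads, lay just inside the threshold.

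The reads of FABP5 could not be assigned to this gene alone. The 150-nt sequence of its RNase I 0.05/0.05 cluster has 1 exact copy elsewhere in the genome, on the minus strand of chromosome 11 next to the pseudogene FABP5P7, and there every IGF2BP3 library listed a cluster with nearly the same counts. At the copy there were 235, 180 and 146 reads with RNase I 0.05/0.05, 0.1/0.025 and 0.05/0.025, 551 after RNase T1 1/1 and 231 with RNase T1 0.25/0.25. The counts differed from those at FABP5 by at most 2 reads, and the conversion events were nearly equal too, with 119 against 118 in the RNase I 0.05/0.05 library and 206 against 204 in the RNase T1 1/1 library. Clusters whose sequence also occurred at another cluster of the same library made up 2.67% of the RNase I 0.05/0.05 clusters and 6.24% of the RNase T1 1/1 clusters. Less exact copies of FABP5 also carried clusters, among them 73 reads with 60 events with RNase T1 1/1 and 40 reads with 29 events with RNase T1 0.25/0.25 next to FABP5P10 on chromosome 2, where the RNase I libraries had none. For PARK7, SRPRB and BCL3 no cluster lay at any other match of at least 30 nt with up to 3 mismatches, although PARK7 has 2 such matches in PARK7P1.

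**Figure D2:**
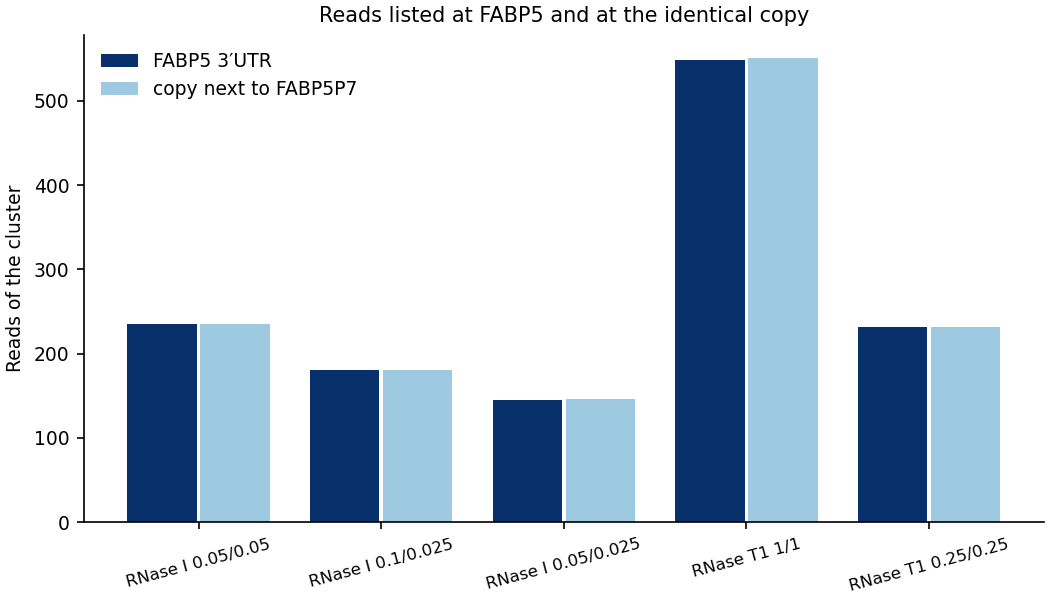
Reads of the cluster in the FABP5 3′UTR (dark bars) and of the cluster at the identical sequence next to FABP5P7 (light bars) in each IGF2BP3 library. The bars of each pair are equal to within 2 reads, from 145 and 146 with RNase I 0.05/0.025 to 549 and 551 with RNase T1 1/1.

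BCL3 (ENSG00000069399) had the fewest reads of the 4 genes and no cluster with RNase T1 at either concentration. Its 3′UTR is 429 nt at chr19:44759616-44760044 on the plus strand. The top RNase I clusters were nested, from 105 to 289 nt after the stop codon at 0.05/0.05, from 108 to 219 at 0.1/0.025 and from 129 to 198 at 0.05/0.025. The piece below, shown because it lies within all 3 clusters and would be left whole by a complete RNase T1 digest, is free of G up to its last base and holds 6 T.
BCL3, longest digest piece of the RNase I 0.05/0.05 cluster, chr19:44759754-44759779: cacctacccatacaccccctcttctG

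This piece of BCL3 is 26 nt long, so that its length is within the 18 to 45 nt of the reads kept. The reads of BCL3 were 60 (25.4 CPM, 19.4 to 32.7), 19 (23.6 CPM, 14.2 to 36.9) and 9 (13.4 CPM, 6.14 to 25.5) with RNase I 0.05/0.05, 0.1/0.025 and 0.05/0.025, and the 3 intervals overlapped. There were 0.717, 0.842 and 0.778 conversion events per read, well above the threshold. At the CPM of the RNase I 0.05/0.05 library BCL3 would have 29.4 reads in the RNase T1 1/1 library and 4.63 in the RNase T1 0.25/0.25 library. As the deposited lists hold only called clusters, with at least 2 reads and 2 converted positions, an absent cluster sets no upper limit on the reads. BCL3 also had a cluster of 5 reads in the coding sequence with RNase I 0.05/0.05 and one of 4 reads at another place of it with RNase I 0.05/0.025.

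**Figure D3:**
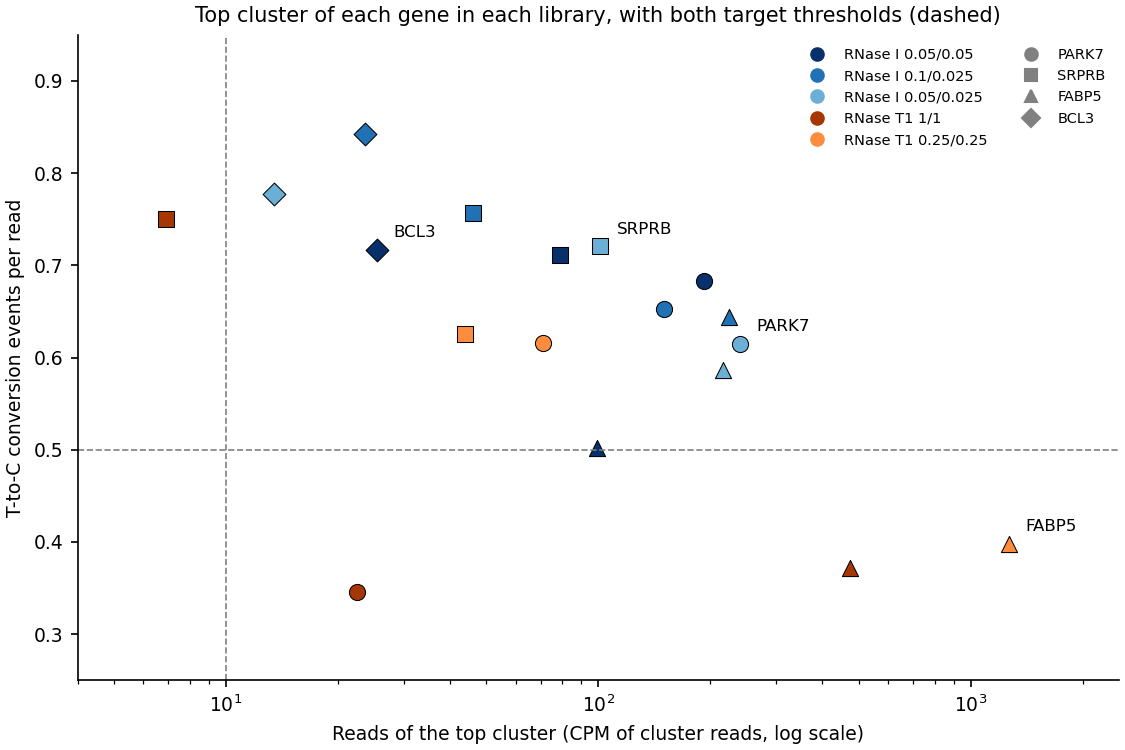
Top cluster of each gene (symbols) in each IGF2BP3 library (colors), with its reads in CPM on a log axis and its T-to-C conversion events per read, and dashed lines at 10 CPM and 0.5 events. SRPRB with RNase T1 1/1 is left of the read threshold at 6.91 CPM, PARK7 with RNase T1 1/1 and FABP5 with both RNase T1 libraries are below the conversion threshold, and BCL3 has no RNase T1 symbol.

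On the CPM used here, the 4 genes hence failed with RNase T1 1/1 in 3 ways, by conversions (PARK7 and FABP5), by reads (SRPRB) and by the absence of a cluster (BCL3). Of the 4981 targets with RNase I 0.05/0.05, 200 (4.02%) had the same status as PARK7 in all 5 IGF2BP3 libraries, 66 (1.33%) the same as SRPRB, 87 (1.75%) the same as FABP5 and 118 (2.37%) the same as BCL3. In the libraries that chose the genes, FABP5 lay just inside the conversion threshold with RNase I 0.05/0.05, at 0.502 events per read, and SRPRB outside the read threshold with RNase T1 1/1, at 6.91 CPM. At more than 5 CPM SRPRB became a target with RNase T1 1/1, and at more than 0.25 events per read PARK7 and FABP5 did, while BCL3 remained without a cluster.

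Events per read depend on how many T a read holds, and the converted proportion of all T read is therefore given too. It uses the same events, so that its values with RNase I 0.05/0.05 and RNase T1 1/1 are again a description of what chose the genes. In PARK7 the proportion was 8.10% (7.28 to 9.01), 7.88% (6.37 to 9.72) and 7.14% (5.90 to 8.61) in the top clusters with RNase I 0.05/0.05, 0.1/0.025 and 0.05/0.025, 3.25% (1.72 to 6.06) after RNase T1 1/1 and 7.02% (3.60 to 13.2) with RNase T1 0.25/0.25. The PARK7 reads held 10.7 T per read with RNase T1 1/1, 8.77 with RNase T1 0.25/0.25 and 8.28 to 8.61 with RNase I. In FABP5 it was 4.53% (3.80 to 5.40), 5.13% (4.30 to 6.12) and 4.75% (3.86 to 5.83) with RNase I, and 3.21% (2.80 to 3.67) and 3.35% (2.74 to 4.09) with RNase T1 1/1 and 0.25/0.25.

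FABP5 reads held a similar number of T with both enzymes, 11.1 to 12.6 with RNase I and 11.6 and 11.9 with RNase T1. Of the comparisons that the choice of the genes did not use, the RNase T1 0.25/0.25 interval of FABP5 lay below that of RNase I 0.1/0.025 and overlapped that of RNase I 0.05/0.025. In SRPRB the proportion was 7.79%, 8.38% and 7.85% with RNase I, 8.22% (3.82 to 16.8) after RNase T1 1/1 and 6.76% (2.92 to 14.9) with RNase T1 0.25/0.25, and all intervals overlapped. BCL3 had the highest proportions of the 4 genes, 11.4% (8.58 to 15.0), 14.4% (9.07 to 22.1) and 12.5% (6.19 to 23.6) with RNase I, at only 5.84 to 6.28 T per read.

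Against all clusters above 10 CPM, the library medians of the converted proportion were 7.89%, 8.11% and 7.53% with RNase I 0.05/0.05, 0.1/0.025 and 0.05/0.025, 5.66% after RNase T1 1/1 and 6.90% with RNase T1 0.25/0.25. The median itself was thus lowest in the RNase T1 1/1 library, where the median number of events per read was 0.5, the threshold, against 0.6 to 0.651 with RNase I. FABP5 ranked low in every library, between the percentiles 3.19 and 15.0, and BCL3 ranked high with RNase I, between 89.6 and 94.8. PARK7 was near the middle with RNase I, between 43.5 and 54.2, and with RNase T1 0.25/0.25, at 51.9, but at 15.6 with RNase T1 1/1.

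**Figure D4:**
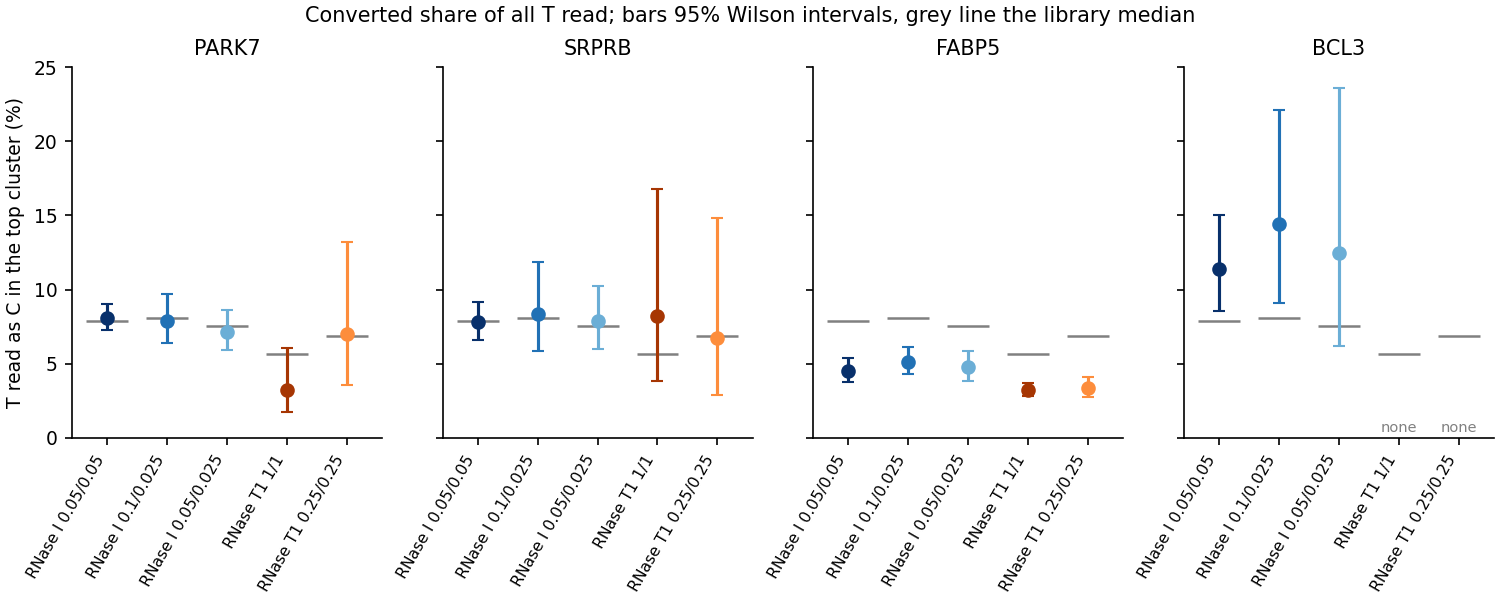
Proportion of T read as C in the top cluster of each gene, in percent, by library, with 95% Wilson intervals as bars and the median of all clusters above 10 CPM as a grey line. PARK7 with RNase T1 1/1 is at 3.25%, under a line at 5.66%, FABP5 is below it in all 5 libraries, and BCL3 is above it in the 3 RNase I libraries.

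The G content of the sites, which the choice did not use, differed widely among the 4 genes. The top RNase I 0.05/0.05 cluster held 21.8% G in PARK7, 20.4% in SRPRB, 17.3% in BCL3 and 11.3% in FABP5, against a median of 18.5% (quartiles 15.7 and 21.5) over the 4981 targets. PARK7 and SRPRB stood at the percentiles 76.5 and 66.6, BCL3 at 39.2 and FABP5 at 3.85. For the 1594 genes lost with RNase T1 1/1 the median was 19.7%, above the median of all targets, so that PARK7 and SRPRB lay on the side of this larger group and FABP5 and BCL3 on the other. The lost genes also differed from the kept ones in depth and length. Their top RNase I 0.05/0.05 clusters had medians of 44 against 97 reads and 134 against 202 nt. Their usable 3′UTRs had a median of 1119 against 2185 nt. Whether G content goes with the loss apart from these was not tested. BCL3 differed in its other bases, with 40.5% C (percentile 98.0) and 21.6% T (percentile 7.31). FABP5 had 39.3% T (percentile 92.3).

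The spacing of G separated the genes more clearly. If RNase T1 cut after every G, 4.21% of the 3′UTR of PARK7 and 3.30% of that of SRPRB would lie in pieces of 18 to 45 nt, against 37.0% of that of FABP5 and 21.7% of that of BCL3. Over the 4327 targets with RNase I 0.05/0.05 whose canonical 3′UTR could be used, the median was 13.2%, with 10.6% for those lost with RNase T1 1/1 and 13.8% for those kept. PARK7 and SRPRB were at the percentiles 6.56 and 5.04 and FABP5 and BCL3 at 99.4 and 91.6, so that the 4 genes lay at both ends of the range. When 1 uncut G was allowed within a piece, the proportions were 51.9% for PARK7, 21.2% for SRPRB, 47.1% for FABP5 and 50.3% for BCL3, and PARK7 was no longer low among the 4 genes.

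**Figure D5:**
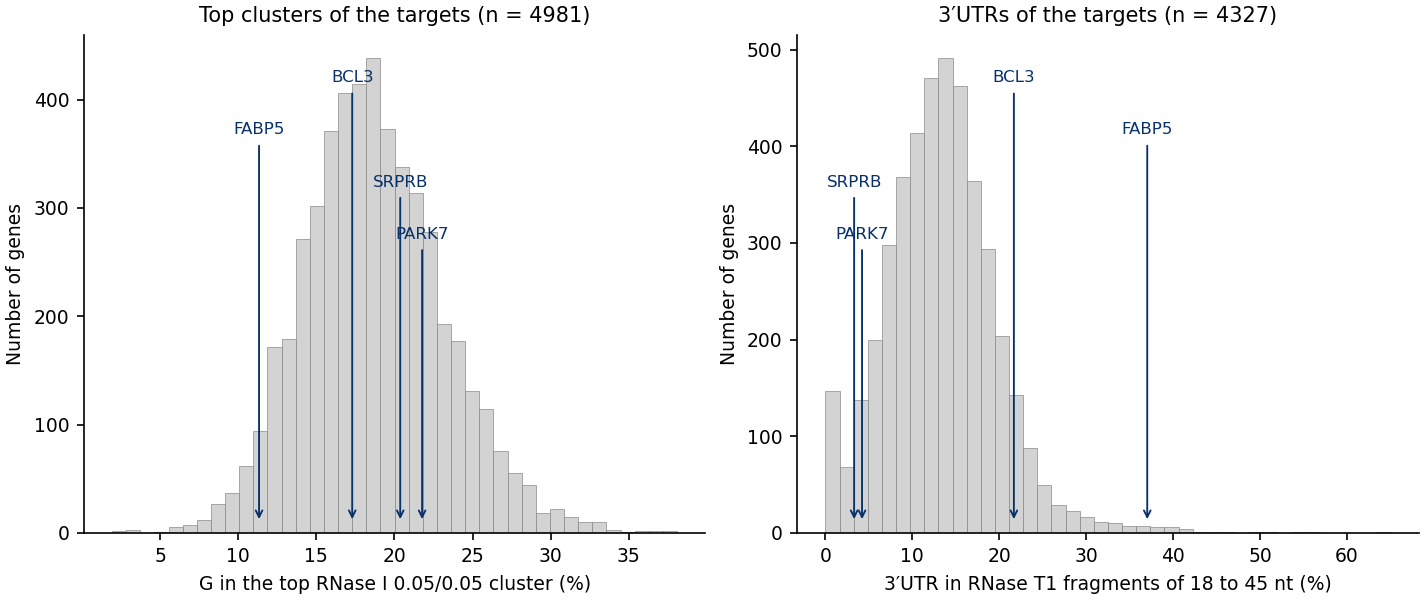
Left, G content in percent of the top RNase I 0.05/0.05 cluster of 4981 targets; right, percentage of the 3′UTR in pieces of 18 to 45 nt after a complete RNase T1 digest in 4327 targets (numbers of genes per bin, arrows at the 4 genes). FABP5 lies at the G-poor edge on the left and at the far right in the other plot, where PARK7 and SRPRB lie near the left edge.

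In PARK7 the only such piece, at 430 to 448 nt after the stop codon, was under no cluster of any library. SRPRB had 2 such pieces, and the first, of 25 nt with 20 T, from 151 to 175, lay partly under RNase I clusters of 27, 11 and 17 reads and under no RNase T1 cluster. FABP5 had 3. Both RNase T1 clusters covered the piece of 32 nt with 15 T and reached into the piece of 26 nt with 19 T, by a single base at 0.25/0.25, but left out the piece of 19 nt with 7 T next to the stop codon, which all 3 RNase I clusters covered. BCL3 had 4, of 19 to 26 nt, with 3 to 7 T each and no RNase T1 cluster. The 3 BCL3 pieces that lay at least partly under the top RNase I 0.05/0.05 cluster had 3, 6 and 7 T.

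RNase T1 clusters on PARK7, SRPRB and FABP5 ended in G in 4 of 7 cases at 1/1 and in 5 of 5 at 0.25/0.25, against 94.7% and 91.7% of all clusters of these libraries. The exceptions at 1/1 were the FABP5 cluster, the top SRPRB cluster and the SRPRB cluster outside the canonical transcript. Of the 32 RNase I clusters on the 4 genes 3 ended in G, and of all RNase I clusters between 11.8% and 12.95% did. The base before the cluster was G in 4 of the 12 RNase T1 clusters, against 54.3% and 54.2% of all clusters at 1/1 and 0.25/0.25, and in 6 of the 32 RNase I clusters, against 14.7% to 15.7%. The clusters on the 4 genes had a median length of 56, 112 and 80.5 nt with RNase I 0.05/0.05, 0.1/0.025 and 0.05/0.025 and of 31 and 49 nt with RNase T1 1/1 and 0.25/0.25. Over all clusters the medians were 54, 53, 52, 33 and 37 nt, in the same order.

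The tetramers CATT and CAGT, read on the strand of the cluster and not able to overlap each other, were both present in the top RNase I 0.05/0.05 cluster of each gene. There were 3 CATT and 1 CAGT in PARK7, 2 and 5 in SRPRB, 2 and 1 in FABP5 and 2 and 1 in BCL3. Clusters of that library within 10% of the same length held CATT in 82.0%, 87.2%, 66.0% and 72.3% and CAGT in 83.0%, 88.1%, 60.3% and 68.7% of cases for the lengths of PARK7, SRPRB, FABP5 and BCL3. In the top RNase T1 1/1 cluster, PARK7 held 1 CATT and no CAGT, FABP5 2 and none, and SRPRB neither. Clusters of similar length in that library held CATT in 29.2%, 45.3% and 39.3% and CAGT in 3.07%, 23.7% and 15.2% of cases, for the lengths of PARK7, FABP5 and SRPRB. The RNase T1 1/1 cluster in the core of the SRPRB site, from 401 to 435, held 2 CAGT. It was not the top cluster, and no proportion for its length was computed. The top RNase T1 0.25/0.25 cluster of SRPRB held 2 CAGT and no CATT, and those of PARK7 and FABP5 held 1 CATT and no CAGT each. Clusters of similar length in that library held CATT in 36.2%, 55.7% and 39.7% and CAGT in 13.1%, 39.0% and 22.9% of cases, for the lengths of SRPRB, PARK7 and FABP5.

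Genes of related function were counted from 1 list for each of the 4 genes, 39 genes in all. With RNase I 0.05/0.05, 17 of them were targets, and 8 of these were not targets with RNase T1 1/1, where the proportion over all targets was 32%. Of the 7 other genes of the signal recognition particle and its receptor, 6 were targets with RNase I 0.05/0.05 and 3 of these were lost with RNase T1 1/1, whereas SRP9, a subunit of the particle, remained a target with 584 and 479 reads. SRP54, named after its values were seen, was a target with RNase T1 1/1 and not with RNase I 0.05/0.05, with 47 and 26 reads. Of 13 genes of mitochondrial quality control and oxidative stress defense listed with PARK7, 9 were targets and 4 of these were lost, and TXNRD1, the cytosolic thioredoxin reductase, remained one with 2300 and 668 reads. Of 10 NF-κB and IκB genes listed with BCL3, 2 were targets and 1 was lost. RELA, the p65 subunit, remained a target with 315 and 76 reads, and REL, a related subunit, had 161 reads without a passing cluster with RNase I 0.05/0.05 and was a target with 184 reads with RNase T1 1/1. However, REL was also a target with RNase I 0.1/0.025, with 35 reads, and had no cluster with RNase T1 0.25/0.25. None of the 9 other fatty acid binding protein genes listed with FABP5 had a cluster in any library.

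The genes nearest to each of the 4 were found among 9353 protein-coding genes by the distance of log2(summed CPM + 1) over the 5 IGF2BP3 libraries. These include the libraries that chose the 4 genes. A CPM pattern shared with a neighbor, a lack of clusters included, therefore follows from the search and is no result. PARK7 was nearest to the ribosomal protein genes RPS12 (distance 0.52) and RPS16 (0.71), which were targets with RNase T1 1/1 at 25.9 and 41.5 CPM. SRPRB was nearest to PPIF, a mitochondrial cyclophilin (0.74), and to ENSG00000272772 (0.78). FABP5 was farther from its neighbors, ANP32E (0.96) and HNRNPF (1.13), which were targets in all 5 libraries and had more CPM with RNase T1 too, at 877 and 850 CPM with RNase T1 0.25/0.25. BCL3 was nearest to the ribosomal protein gene RPL41 (0.14) and to PLPP1 (0.22), both of which had no RNase T1 cluster. With the top cluster in place of the summed clusters none of these 8 neighbors remained.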

How the data were processed

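IR-PAR-CLIP clusters from 6 HCT116 libraries were analysed. Per the labels and methods, the authors extracted UMIs and deduplicated with UMI-tools 1.1.1, trimmed them with Trimmomatic 0.30 to between 18 and 45 nt, and mapped with Bowtie 0.12.7 (GRCh38, at most 3 mismatches), and PARalyzer then built clusters in each library. How reads with several matches were handled is not given in the sources used here. The deposited values are counts of reads, conversion and non-conversion events per cluster, not normalized. The mode score that the authors deposited, a fraction, was left out.

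Clusters were assigned to genes by an overlap of at least 1 nt with a GENCODE release 44 exon on the same strand (bedtools 2.31.1). CPM used summed cluster reads, which are not library sizes. Each of the 244645 cluster sequences matched GRCh38. Copies were searched with BLAST 2.17.0. Python 3.11.15, pandas 2.3.3, pysam 0.24.0, scipy 1.17.1 and matplotlib 3.10.9 were used. Calls and fragment lengths were tested on simulated data, and the intervals were not. The genes and lists were chosen with earlier results of these data known. Named besides the 4 genes were the most read relative of each list in RNase I 0.05/0.05 and RNase T1 1/1, the 2 nearest genes of each by pattern, and copies.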

Additional observations from a re-analysis of the deposited data

Results flagged for a closer look

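A few clusters lay outside the exons of the 4 genes. The IgG library had none there. Its clusters held only 324 reads in all, so that a low background and a low depth cannot be told apart here either. An intron of SRPRB, at chr3:133788063-133788089 on the plus strand, held a cluster of 5 reads with 2 conversion events in the RNase I 0.05/0.05 library. FABP5P7 and FABP5P1 each held a cluster of 8 reads with 6 events in the RNase I 0.05/0.05 library and of 9 reads with 7 events in the RNase I 0.05/0.025 library. The sequences of these clusters are identical to the FABP5 mRNA across the junction of its exon 2 with the next exon, and the reads were aligned to the genome. From which of these loci the reads came was not tested.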

How the results depend on the processing

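Of 87 alternative values, 65 stayed within the tolerance set for their kind. Counts had to stay within 1.5 times the reported count, and positions within the span of the top cluster. Percentages of bases had to stay within the Wilson interval of the reported one. That interval is over the bases of a fixed sequence and is no counting error. Some calls changed within the ratio of 1.5. BCL3 was no target with RNase I 0.1/0.025 or 0.05/0.025 when at least 20 reads were asked. It was also none with RNase I 0.05/0.025 above 20 CPM. FABP5 became a target with RNase T1 0.25/0.25 above 0.25 events per read. Beyond that ratio, the number of the 4 genes that were targets moved as follows. At more than 0.75 events per read it was 1 (SRPRB) with RNase I 0.05/0.05, 2 (SRPRB and BCL3) with RNase I 0.1/0.025 and with RNase I 0.05/0.025, and 1 (PARK7) with RNase T1 0.25/0.25. With conversions counted over all T read it was 0 in every library. With RNase T1 1/1 it was 1 (SRPRB) above 5 CPM, 2 (PARK7 and FABP5) above 0.25 events per read and 1 (SRPRB) with the clusters of a gene summed, and with RNase T1 0.25/0.25 it was 0 when at least 20 reads were asked. The 1594 targets lost with RNase T1 1/1 became 2853 with at least 20 reads, 1062 above 0.25 and 975 above 0.75 events per read, 3654 with clusters summed and 0 over all T read. With 1 uncut G allowed, the proportion of the 3′UTR in pieces of 18 to 45 nt was 51.9% in PARK7, 21.2% in SRPRB, 47.1% in FABP5 and 50.3% in BCL3. Of the nearest genes, 0 were shared when the top cluster was used. Splitting the FABP5 reads between its 2 identical copies, chosen after seeing the data, changed no call. It could change none, as it lowered only the CPM of FABP5, which was 99.5 or more in each IGF2BP3 library. The conversion events per read stayed the same. Some of the clusters rest on few reads, such as the top clusters of SRPRB with RNase T1, of 8 reads each, and of BCL3 with RNase I 0.05/0.025, of 9, and in the RNase T1 0.25/0.25 library 10 CPM equals 1.82 reads, so that every cluster passes it. No paired analysis was possible because each condition has 1 library and the labels give no replicate numbers.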
